A study of Homo sapiens with 18 samples.

Results

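Collagen chains and the enzymes that modify and fold them in the endoplasmic reticulum were followed through 18 Illumina bead arrays made from KMS11, a human multiple myeloma cell line. The 8 genes are the chains COL18A1 and COL22A1, the lysyl hydroxylases PLOD1, PLOD2 and PLOD3, the prolyl hydroxylases P4HA1 and P4HA2, and the procollagen chaperone SERPINH1. All 14 probes annotated to these symbols were taken, of 48803 probes and 18665 symbols on the array. The set was chosen by measured values: COL18A1, COL22A1 and PLOD2 were selected on their strong differences with the state of MMSET on these same arrays. For those 3 genes the levels and differences below are therefore a description with no test, and the other 5 are read from a test across all genes.

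MMSET (gene symbol NSD2) is a histone methyltransferase that KMS11 overexpresses from a chromosome translocation. In an inducible knock-down, cells that carry a hairpin RNA against the 5' region of MMSET were given doxycycline (+DOX) or none (no DOX). In a repletion system, KMS11 cells labelled as knock-outs for MMSET were infected with a retrovirus that carried wild-type MMSET II, the F1177A mutant (labelled active), the Y1118A mutant (labelled inactive) or the empty vector with DSRed as the control. All 4 repletion groups share the knock-out and the infection, and both hairpin groups share the hairpin construct. Each of the 6 groups has 3 arrays, described as triplicates with no mention of separate cultures. A p-value here therefore speaks of array-to-array spread, possibly technical, and of nothing more. Neither the labels nor the design text say whether the hairpin or knock-out cells were single clones or pools.

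Collagen chains are hydroxylated on proline and lysine while they enter the endoplasmic reticulum. Prolyl 4-hydroxylase, with a catalytic alpha subunit from P4HA1 or P4HA2 and the beta subunit P4HB, makes the hydroxyproline that keeps the triple helix stable at body temperature. The lysyl hydroxylases make the hydroxylysine that carries sugars and enters the cross-links between chains, and all of these enzymes need iron, ascorbate and 2-oxoglutarate. SERPINH1 (HSP47) binds the folded triple helix and goes with it towards the Golgi. Plasma cells are specialised for antibody secretion and are not known as a source of fibrillar collagen.

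PLOD2 and the prolyl hydroxylase genes are textbook targets of the hypoxia-inducible factors, so the 250 bases upstream of 1 RefSeq start of PLOD2, P4HA1 and P4HA2 are shown, 5' to 3' on the gene's strand (RefSeq, GRCh38.p14). Capitals mark the core letters ACGTG or GCGTG of the hypoxia response element, read on either strand. The PLOD2 window is chr3:146161185-146161434 (minus strand), the P4HA1 window is chr10:73096867-73097116 (minus strand) and the P4HA2 window is chr5:132227092-132227341 (minus strand). The first 2 windows end at the base before the annotated gene, and the P4HA2 window lies inside the annotated span of its gene.
PLOD2: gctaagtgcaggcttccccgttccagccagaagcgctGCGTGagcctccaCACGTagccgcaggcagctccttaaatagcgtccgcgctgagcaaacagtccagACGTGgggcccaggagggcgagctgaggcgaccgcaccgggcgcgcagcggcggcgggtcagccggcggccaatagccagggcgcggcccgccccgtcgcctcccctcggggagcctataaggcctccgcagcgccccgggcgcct
P4HA1: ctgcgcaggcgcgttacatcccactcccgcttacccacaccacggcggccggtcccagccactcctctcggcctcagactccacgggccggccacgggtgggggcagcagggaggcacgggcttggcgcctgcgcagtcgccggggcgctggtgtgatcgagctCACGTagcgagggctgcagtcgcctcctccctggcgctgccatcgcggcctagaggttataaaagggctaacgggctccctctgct
P4HA2: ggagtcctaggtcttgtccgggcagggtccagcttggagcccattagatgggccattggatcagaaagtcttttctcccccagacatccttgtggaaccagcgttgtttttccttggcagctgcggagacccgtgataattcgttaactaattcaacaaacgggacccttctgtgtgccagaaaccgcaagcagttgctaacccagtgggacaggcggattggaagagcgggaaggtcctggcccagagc
The PLOD2 window held 3 of these short motifs, the P4HA1 window held 1, and the P4HA2 window held 0. Of 35116 promoter windows of this length in the RefSeq table, 43.2% held at least 1 match and 7.76% held 3 or more, so a match by itself is common. Among the other members in the table, PLOD1 had 2 matches and PLOD3 had 0, while COL18A1 had 0 and 1 at its 2 starts and SERPINH1 had 0 and 3. A match is a run of letters, not a binding site.

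The members lie on 8 different chromosomes. COL18A1 spans bases 45405165 to 45513720 of chromosome 21, PLOD2 spans bases 146069440 to 146161184 of chromosome 3, and COL22A1 is on chromosome 8 (GRCh38.p14). Of the 14 probes, 8 were detected (detection p under 0.01) on at least 3 arrays, exactly 1 per gene, and these were the ones tested. The other 6 probes belong to COL18A1, PLOD2, P4HA1 and P4HA2, and 5 of them were detected on no array. Levels are given as normalised log2 intensities, on which a probe without signal sits near 4.3 (the mean of COL18A1 in MMSET II cells was 4.30), or as the deposited background-subtracted intensities where a value is close to background. A constant was added before the logarithm, so for dim genes the log2 difference is smaller than the true change. A difference was called at an adjusted p under 0.05 (limma, two-sided, Benjamini-Hochberg over 10954 features), and "at least N-fold" is used where 1 group sat near background.

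The array set as a whole bears on these values in a few ways. NSD2, the targeted gene, was read from the 1 of its 4 probes that passed the filter. It averaged 5.94 ± 0.06 in +DOX cells and 6.64 ± 0.15 in no DOX cells (log2 level, SD, n = 3 each). At this probe that was a fall of 0.70 (limma, adjusted p = 0.000369). Median scaling, described below, ended that call (-0.16, adjusted p = 0.515, or -0.64 relative to the median of all features). In the repletion cells the same probe averaged 5.63 in MMSET II, 5.77 in F1177A, 5.80 in Y1118A and 5.66 in DSRed cells and was called in no comparison with DSRed (itself a knock-out group), and the 12 repletion arrays lay between 5.42 and 5.93, against 6.47, 6.71 and 6.73 on the no DOX arrays. Where the probe lies relative to the deleted part or the construct was not checked. The probe was also dim, with intensities of 33.3 to 49.8 in +DOX and 39.5 to 50.1 in no DOX cells. The extent of the knock-down or of the repletion therefore cannot be read from it. Array brightness also differed: the 95th percentile of intensity ran between 241.5 and 1032.58, its log2 value was 0.75 higher in +DOX than in no DOX arrays, and in F1177A arrays it was 0.58 lower than in DSRed arrays. When arrays were aligned only on their medians, the median difference of all features moved to 0.49 for +DOX against no DOX, 0.21 for MMSET II, -0.41 for F1177A and 0.21 for Y1118A against DSRed. Those medians were taken over all 48803 probes, of which 10731 to 12170 were detected per array. They thus lay among undetected probes, and a shift of the tested features between groups was left in place. Differences under it carry that shift. Values under this median scaling are given below beside results that it changes. Of 10 plasma cell markers, 7 or 8 were detected on all 3 arrays of every group, with summed intensities of 12344.7 to 42389. SDC1 was among them except in MMSET II and F1177A cells. Of 9 measured, 4 were called higher and 1 lower with doxycycline (21.2% and 20.1% of all features). Against DSRed 5, 4 and 5 were lower in MMSET II, F1177A and Y1118A cells (15.8%, 8.79% and 12.4% of all features). Only in Y1118A cells was 1 higher. Their part in the collagen levels was not tested. Of 10 fibroblast markers no more than 2 were detected in a group, their summed intensity was 60.1 to 220.5, and COL1A1, COL1A2, COL3A1, DCN and LUM were detected in none. Of 8 endothelial markers, PECAM1 alone was detected on all 3 arrays of both hairpin groups, and none was on all 3 of a repletion group. COL18A1 below was detected in the same groups, and a link was not tested. Of 7 T cell and myeloid markers none was detected on all 3 arrays of a group. Of 6 epithelial markers, EPCAM and KRT18 were detected in both hairpin groups, EPCAM alone in MMSET II, F1177A and Y1118A cells, and none in DSRed cells. Their summed intensity, as deposited and so not corrected for array brightness, was 915.3 to 1484 in +DOX and 547.9 to 731.4 in no DOX cells. It was 125.1 to 202.3 in MMSET II, 46.8 to 60.6 in F1177A, 45 to 45.2 in Y1118A and 9.8 to 18.6 in DSRed cells. After normalisation, of the 2 measured, 0 were called higher and 1 lower with doxycycline, with a median difference of -0.21 (21.2% and 20.1% of all features). Like PLOD2 below, these sums were highest in the hairpin cells and lowest in DSRed cells, and the part of such cells or genes in the PLOD2 levels was not tested.

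COL18A1, the basement membrane chain whose cleaved end is endostatin, was a gene of the hairpin cells alone on these arrays. Its intensity was 337.2, 240.6 and 296.9 on the 3 +DOX arrays, against 26.2, 39.3 and 25.4 on the 3 no DOX arrays. Every +DOX array lay far above every no DOX array, and the probe was detected on all 6. On the log2 scale COL18A1 averaged 8.43 ± 0.22 in +DOX cells and 6.11 ± 0.30 in no DOX cells (SD, n = 3 each), a difference of 2.32 (SE 0.14), or 4.99-fold. All 12 repletion arrays had intensities below 0, between -7.3 and -0.6, and the probe was detected on none of them. COL18A1 was thus above background with neither wild-type MMSET II nor a mutant, and no fold is given there. The second COL18A1 probe, annotated to another RefSeq transcript, had intensities of 2.9, -6.0 and -1.8 in +DOX cells and 5.5, -4.7 and -5.6 in no DOX cells and was detected nowhere, so the difference rests on 1 probe. The hairpin and the repletion cells differ in origin and in treatment, which cannot be told apart as sources of that gap. On bulk arrays a gene made by fewer cells and less RNA per cell cannot be told apart either.

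COL22A1, a fibril-associated collagen known from tissue junctions such as that of muscle and tendon, was found in 2 of the 6 groups. Its intensity was 81.6, 71.5 and 66.7 on the F1177A arrays, 46.5, 31.8 and 21.9 on the MMSET II arrays, and 1.7, 3.5 and 6.9 on the DSRed arrays. The Y1118A arrays, with the mutant labelled inactive, gave -0.5, -1.1 and -5.9. The probe was detected on every array of F1177A and MMSET II cells and on no other. On the log2 scale the difference to DSRed was 2.38 (SE 0.12) for F1177A, or at least 2.79-fold, and 0.88 (SE 0.12) for MMSET II. Against Y1118A the difference was 2.56 for F1177A, at least 3.09-fold, and 1.06 for MMSET II, at least 1.09-fold. F1177A cells also stood above MMSET II cells, by 1.502 (SE 0.12), and their arrays did not overlap. In the hairpin cells COL22A1 stayed near background, with intensities of -3.5, 0.7 and 1.2 in +DOX cells and 7.4, 2.4 and 4.3 in no DOX cells. Thus the 2 chains were detected in no group together: COL18A1 in both hairpin groups, COL22A1 in the MMSET II and F1177A groups.

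**Figure D1:**
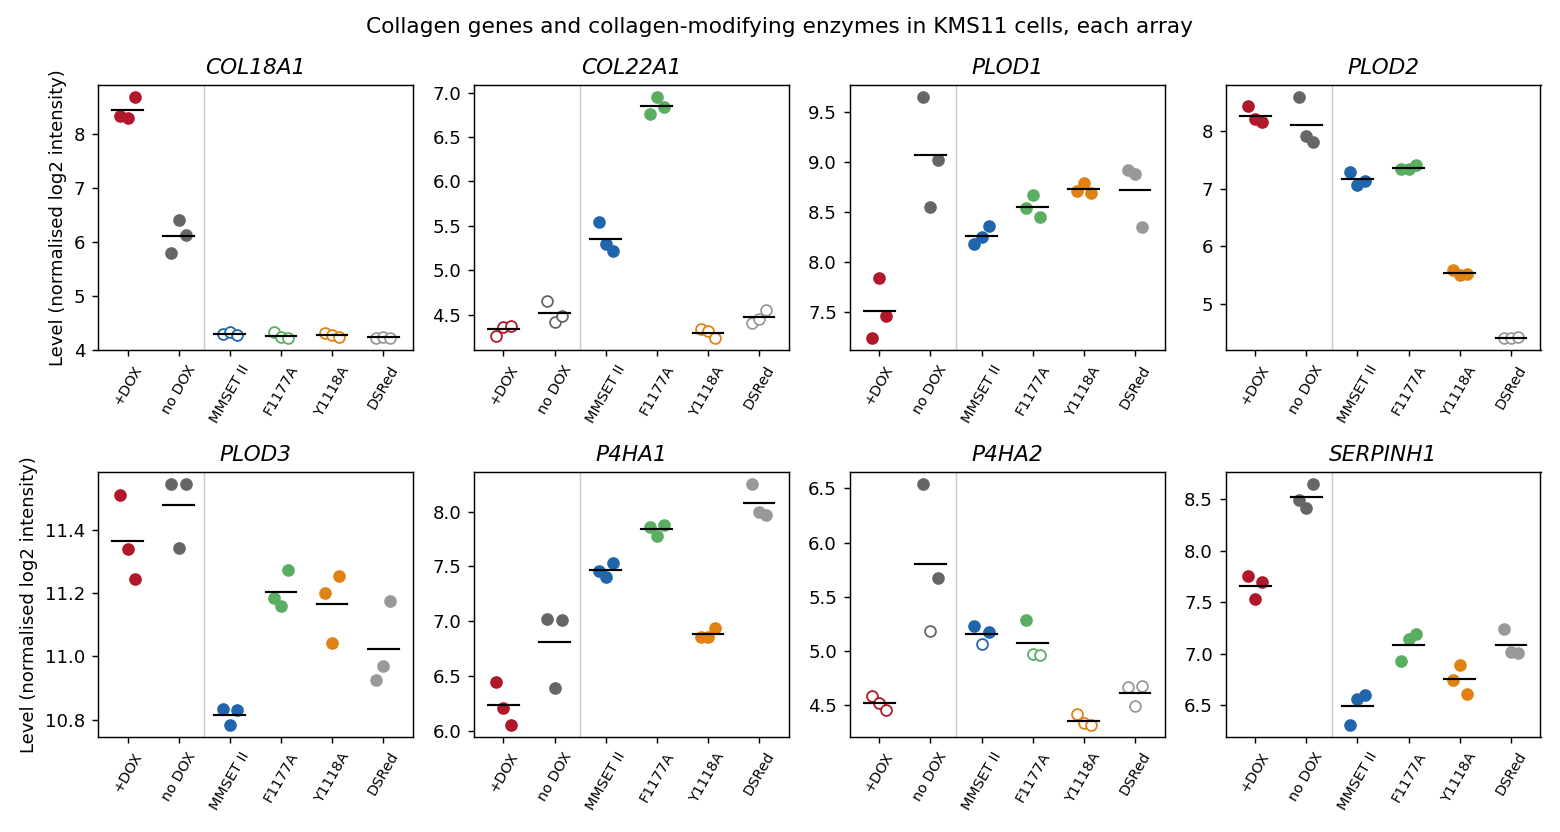
Normalised log2 level of the 8 genes on every array, with 1 panel per gene and 1 column per group; points are single arrays, bars the group means, and open points arrays on which the probe was not detected. COL18A1 is filled only in +DOX (mean 8.43) and no DOX (6.11), COL22A1 only in MMSET II (5.35) and F1177A (6.85), and PLOD2 in every group except DSRed (4.41).

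PLOD2, the lysyl hydroxylase of the collagen telopeptides, was the enzyme that varied most between the repletion groups. Its intensity was 216.6, 159.1 and 132.1 in MMSET II cells, 127.4, 97.8 and 104.2 in F1177A cells, and 42.6, 36.8 and 38.7 in Y1118A cells. The DSRed arrays gave 1.7, 1.8 and 2.5, and PLOD2 was detected on none of them. The log2 level followed the order F1177A (7.36 ± 0.04), MMSET II (7.16 ± 0.12), Y1118A (5.54 ± 0.05) and DSRed (4.41 ± 0.01; SD, n = 3 each), with no overlap between neighbours. Against DSRed the level was at least 3.97-fold higher in F1177A cells, at least 3.45-fold higher in MMSET II cells and at least 1.12-fold higher in Y1118A cells. Y1118A cells thus had a measured PLOD2 signal, but 1.82 log2 units (SE 0.15) separated F1177A from Y1118A and 1.62 (SE 0.15) separated MMSET II from Y1118A. The step between F1177A and MMSET II was small, 0.20 (SE 0.15), and became -0.48 with median scaling, or 0.14 above the median of all features under that scaling.

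In the hairpin cells PLOD2 was high with and without doxycycline. The log2 levels were 8.44, 8.21 and 8.17 on the +DOX arrays, against 8.60, 7.91 and 7.82 on the no DOX arrays. The groups overlapped, and the difference was 0.17 (SE 0.15). Without replicate 1 of the no DOX group it was 0.41, so that 1 array holds much of the overlap. The levels in both hairpin groups lay above those of all repletion groups. The other 2 PLOD2 probes were detected on no array. 1 of these gave 14.6, 12.4 and 10.4 in +DOX cells, 8.6, 5.9 and 5.1 in no DOX cells, 13.7, 9.6 and 3.5 in MMSET II cells, 4.8, 6.1 and 4.3 in F1177A cells, 4.6, -2.8 and -2.1 in Y1118A cells and -4.6, -1.6 and -3.1 in DSRed cells. The DSRed arrays overlapped with 2 of the 3 Y1118A arrays and lay below all arrays of the other groups, and every value was under the detection threshold.

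PLOD1, which hydroxylates lysines within the helix, moved the opposite way to COL18A1 in the hairpin cells. Its log2 levels were 7.23, 7.84 and 7.46 on the +DOX arrays, against 9.65, 8.55 and 9.02 on the no DOX arrays. PLOD1 fell by 1.56 (SE 0.21), or 2.96-fold (limma, adjusted p = 9e-06), and the groups did not overlap. Leaving out each array in turn gave differences of -1.83 to -1.27, and the call also held with median scaling (-0.89, adjusted p = 0.0132). In the repletion cells PLOD1 was between 8.18 and 8.92 on every array and differed in no comparison at the threshold, but with median scaling it was called lower in F1177A than in Y1118A cells (-0.97, adjusted p = 0.00571). It was lower on every MMSET II array than on every Y1118A array (-0.47; limma, adjusted p = 0.125). Limma on those 2 groups alone called this (adjusted p = 0.00038), as did array weights (0.000759), whose estimate stopped before it converged. F1177A against MMSET II (0.29) was called in the same 2 ways (adjusted p = 0.0154 and 0.0452). MMSET II cells averaged 8.26 ± 0.09 and DSRed cells 8.72 ± 0.32 (SD, n = 3 each), a difference of -0.46 with a 95% interval of -0.89 to -0.03 and an adjusted p of 0.0944 (limma). Without replicate 3 of DSRed, the array with the lowest PLOD1 of that group, the difference was -0.64 (limma, adjusted p = 0.0212).

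PLOD3, which adds both the hydroxyl group and the glucose unit of collagen lysines, had group means that spanned 10.82 to 11.48. With doxycycline it differed by -0.11 (95% interval -0.30 to 0.08; limma, adjusted p = 0.345), so a change of more than that interval is not seen on these arrays. Against DSRed it differed by -0.21 in MMSET II cells (adjusted p = 0.0892), 0.18 in F1177A cells (0.172) and 0.14 in Y1118A cells (0.26), all from limma and none called. Between constructs PLOD3 was lower in MMSET II than in Y1118A cells (-0.35; limma, adjusted p = 0.0106), with log2 levels of 10.83, 10.78 and 10.83 against 11.20, 11.04 and 11.25. That call was lost without replicate 3 of Y1118A (adjusted p = 0.062) and with median scaling (0.685). F1177A cells stood above MMSET II cells by 0.39 (limma, adjusted p = 0.00263), a sign that median scaling turned (-0.35, or 0.27 relative to the median of all features).

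P4HA1, the main catalytic subunit of prolyl 4-hydroxylase, was highest in the DSRed cells. Its log2 levels were 6.86, 6.85 and 6.94 in Y1118A cells, 7.46, 7.41 and 7.53 in MMSET II cells, 7.86, 7.78 and 7.88 in F1177A cells, and between 7.97 and 8.26 in DSRed cells. The 4 groups did not overlap with their neighbours. P4HA1 fell by 1.19 in Y1118A cells relative to DSRed, or 2.29-fold (SE 0.14; limma, adjusted p = 9.47e-06), and this call held under every alternative tried. In MMSET II cells it fell by 0.61, or 1.53-fold (adjusted p = 0.00281), a call that median scaling ended (-0.39, adjusted p = 0.33). F1177A cells differed from DSRed by -0.24 (adjusted p = 0.262). Set against the mutant labelled inactive, P4HA1 was higher by 0.96 in F1177A cells (adjusted p = 7.55e-05) and by 0.58 in MMSET II cells (adjusted p = 0.00708; limma for both). Both calls ended with median scaling (adjusted p = 0.418 and 0.281), with the sign kept.

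The order of P4HA1 was unlike that of PLOD2, although both lie in the same pathway: Y1118A cells had the lowest P4HA1 of the repletion groups, while DSRed cells had the lowest PLOD2 and the highest P4HA1. In the hairpin cells P4HA1 was 6.44, 6.21 and 6.05 on the +DOX arrays and 7.02, 6.39 and 7.01 on the no DOX arrays. It was called lower with doxycycline (-0.57, 1.49-fold; limma, adjusted p = 0.00362), but 1 array of each group overlapped. The call ended when the 2 hairpin groups were fitted alone (adjusted p = 0.066) and with median scaling (-0.02, adjusted p = 0.952, or -0.51 relative to the median of all features). The second P4HA1 probe was detected on no array.

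P4HA2, the alternative catalytic subunit, was a dim gene seen mainly without doxycycline. Its intensity was 6.8, 5.2 and 3.4 on the +DOX arrays, against 48, 14.1 and 18 on the no DOX arrays, of which 2 were detected. The level was at least 1.43-fold lower with doxycycline (-1.28 on the log2 scale, SE 0.22; limma, adjusted p = 0.000128). Differences without each array in turn ran between -1.59 and -0.91, all called, and median scaling kept the call (adjusted p = 0.00284). In the repletion cells MMSET II arrays gave 32.5, 23 and 21, F1177A arrays 21.4, 12.6 and 12.2, Y1118A arrays 2.8, -0.6 and -1.2, and DSRed arrays 8.4, 4.3 and 10.8. The MMSET II and F1177A groups lay above the other 2 on every array, yet no more than 2 arrays of a group were detected, so these are differences at the edge of background. Against Y1118A, P4HA2 was called higher in MMSET II (0.80, adjusted p = 0.0128) and F1177A cells (0.72, adjusted p = 0.015), both from limma, and a larger constant before the logarithm ended both calls (adjusted p = 0.0623 and 0.0628). Against DSRed, the difference of 0.55 in MMSET II cells, with both groups near background, had an adjusted p of 0.0585 (limma). It was called under 6 alternatives. Among these were limma on the 2 groups alone (adjusted p = 0.00484) and array weights, whose estimate stopped before it converged.

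A second P4HA2 probe gave a like order at lower brightness. Its intensity was 12.1, 6.7 and 5.9 in +DOX cells, against 20.6, 11.2 and 15.8 in no DOX cells. In the repletion cells it was 20.9, 13.5 and 11.8 in MMSET II, 17.5, 12.7 and 11.1 in F1177A, -3.3, 5.3 and 4.2 in Y1118A, and 5.4, 1.1 and 8.1 in DSRed cells. It was detected on 2 arrays, both without doxycycline, and did not enter the test.

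SERPINH1, the chaperone of folded procollagen, was lower with doxycycline. The log2 levels were 7.75, 7.53 and 7.69 on the +DOX arrays, against 8.49, 8.41 and 8.65 on the no DOX arrays. SERPINH1 fell by 0.86, or 1.81-fold (SE 0.12; limma, adjusted p = 1.7e-05), with no overlap. With median scaling the difference was -0.19 (adjusted p = 0.491), or -0.68 relative to the median of all features. In the repletion cells it was 6.31, 6.56 and 6.60 in MMSET II, 6.93, 7.14 and 7.19 in F1177A, 6.75, 6.89 and 6.61 in Y1118A, and 7.24, 7.01 and 7.002 in DSRed cells. It fell by 0.59 in MMSET II cells relative to DSRed (limma, adjusted p = 0.000776; 0.293 with median scaling). F1177A cells did not differ detectably from DSRed (0.00, 95% interval -0.25 to 0.25). F1177A cells were also higher than MMSET II cells by 0.59 (limma, adjusted p = 0.00076), which median scaling turned to -0.06 (0.56 relative to the median of all features). The fall in Y1118A cells (-0.33, adjusted p = 0.0433) and the rise of F1177A over Y1118A cells (0.34, adjusted p = 0.0336), both from limma, were lost without 1 array in 4 of the 6 cases each. Median scaling ended the first (-0.075, adjusted p = 0.866) and turned the second to -0.36.

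Counted together, 4 of the 5 tested members were lower with doxycycline and none was higher, on arrays where 20.1% of all features were called lower and 21.2% higher. PLOD3 was the exception. With median scaling 2 of the 4 calls were left, PLOD1 and P4HA2. In MMSET II cells 2 of the 5 were lower than in DSRed cells (15.8% of all features called lower and 17% higher), in F1177A cells none was called (8.79% lower, 11.7% higher; by limma's 95% intervals, which left out 0 for P4HA2 alone, 1 passed without adjustment), and in Y1118A cells 2 were lower (12.4% lower, 15.3% higher). Against Y1118A, MMSET II cells had P4HA1 and P4HA2 higher and PLOD3 lower (9.16% of features called higher and 9.33% lower), and F1177A cells had P4HA1, P4HA2 and SERPINH1 higher (17.8% higher, 18.9% lower), while with median scaling PLOD1 and PLOD3 were called lower there (-0.97 and -0.67, adjusted p = 0.00571 and 0.0295). PLOD3, P4HA1 and SERPINH1 were higher in F1177A than in MMSET II cells (19.1% higher, 19.7% lower), although P4HA1 (limma, adjusted p = 0.0457) lost that call when any 1 of the 6 arrays was left out. The comparisons with DSRed share their control arrays. With 5 genes, these counts describe the members and are no evidence about the pathway.

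**Figure D2:**
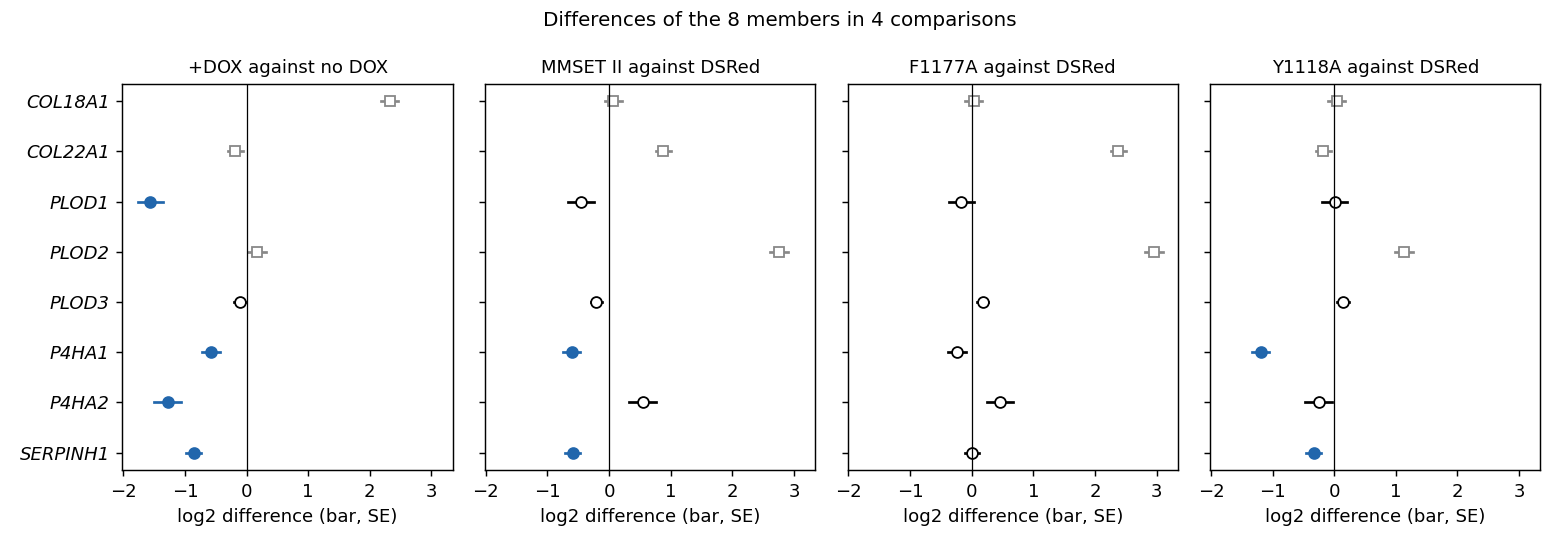
Log2 difference of each of the 8 genes in +DOX against no DOX and in MMSET II, F1177A and Y1118A against DSRed, 1 panel per comparison, with bars of 1 SE; filled blue circles were called lower, open circles were not called, and open grey squares are COL18A1, COL22A1 and PLOD2, which got no test. In the +DOX panel COL18A1 stands at 2.32 and PLOD1 at -1.56; in the panels against DSRed PLOD2 stands at 2.75 for MMSET II, 2.95 for F1177A and 1.13 for Y1118A.

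The other genes of the pathway were described from lists with the 8 members left out. Of 42 other collagen chain genes 7 were measured, a list in which the fibrillar chains COL1A1, COL1A2 and COL3A1 are missing. With doxycycline 2 of them were higher and 2 lower, beside 21.2% and 20.1% of all features. COL9A2, a chain of cartilage collagen IX, fell by 0.98 (limma, adjusted p = 8.66e-06; 0.201 with median scaling), and COL24A1, a minor fibrillar chain, rose by 0.65 (adjusted p = 0.00168). In MMSET II cells 2 were higher and 3 lower than in DSRed cells, beside 17% and 15.8% of all features. COL6A1, a chain of the beaded-filament collagen VI, was at least 1.11-fold higher. It passed the detection filter only through the MMSET II arrays, so its call and its place in that count carry no weight as a test. COL9A2 fell by 0.93 and COL24A1 by 0.88 (limma, adjusted p = 1.44e-05 and 0.000116). With median scaling 2 were higher and 1 lower: COL24A1 kept its call (adjusted p = 0.012) and COL9A2 did not (-0.72, adjusted p = 0.0561). COL6A1 was detected on all 3 arrays of MMSET II cells and on no array of another group, unlike COL22A1, which was brighter in F1177A cells. Below the detection threshold, COL6A1 still gave intensities of 17.7, 19.7 and 24.6 in Y1118A cells. These lay above all DSRed arrays (8.9, 1.7 and 7.5) and all F1177A arrays (4.6, 9.4 and 5.1). In F1177A cells COL4A3, a basement membrane chain, was at least 1.14-fold higher than in DSRed cells (limma, adjusted p = 0.00113).

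Of 24 other genes for collagen modification and folding in the endoplasmic reticulum, 15 were measured. With doxycycline 8 were lower and 1 higher, with a median difference of -0.38 against 0.01 over all features, but median scaling gave 1 lower and 3 higher. Before that scaling 20.1% of all features were called lower and 21.2% higher. PDIA4, a disulfide isomerase, fell by 1.83 (limma, adjusted p = 3.86e-06). CRTAP, a partner of prolyl 3-hydroxylase, fell by 0.72 (adjusted p = 0.00126) at the tested probe and differed by -0.14 at its other probe. P4HB, the beta subunit that P4HA1 and P4HA2 both need, fell by 0.39 (adjusted p = 0.0016), a sign that median scaling turned (0.14, or -0.35 relative to the median of all features). In the repletion cells P4HB fell by 0.58, 0.51 and 0.60 in MMSET II, F1177A and Y1118A cells relative to DSRed (limma, adjusted p = 4.38e-05, 0.000328 and 6.44e-05). Between constructs P4HB was not called: F1177A and Y1118A cells differed by 0.09 (adjusted p = 0.448) and MMSET II and Y1118A cells by 0.02 (adjusted p = 0.922), in a pair of comparisons where P4HA1 was called. The list as a whole had 4, 6 and 5 genes lower and 0 higher in the MMSET II, F1177A and Y1118A groups against DSRed. Of all features 15.8%, 8.79% and 12.4% were called lower there. Median scaling gave 0, 8 and 0 genes of the list lower.

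Among 14 measured procollagen export genes, 5 were lower and 1 higher with doxycycline, 8 lower in MMSET II, 2 lower in F1177A and 7 lower in Y1118A cells, with none higher in the 3 repletion groups. Of all features 20.1% were called lower with doxycycline, and 15.8%, 8.79% and 12.4% in MMSET II, F1177A and Y1118A cells. Median scaling changed these counts to 1 lower and 5 higher, 0, 4 and 1 lower. TFG, an organiser of export sites, fell by 1.07 with doxycycline (limma, adjusted p = 6.32e-05; -0.11 at its other probe). CREB3L2, the transcription factor that drives secretory genes in cartilage, fell by 1.19 in Y1118A cells (limma, adjusted p = 1.55e-05).

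Of the 19 procollagen processing and crosslinking genes, 4 were measured. In MMSET II cells all 4 (BMP1, PCOLCE, PCOLCE2 and LOXL4) were called higher than in DSRed cells, in F1177A cells 3 and in Y1118A cells 1. Of all features 17%, 11.7% and 15.3% were called higher there. The count of 4 includes BMP1, which was measured only because of its signal in MMSET II cells. Median scaling gave 4, 2 and 1. Some fibroblast markers were higher as well. Of the 3 that were measured (PDGFRA, PDGFRB and ACTA2), 2, 2 and 1 were called higher in these groups, beside the same shares of all features. Their median differences were 0.62, 0.81 and 0.20 (2, 1 and 0 called with median scaling). The part of these markers in the counts of the list was not tested. LOXL4, a lysyl oxidase that acts on the lysines the PLOD enzymes modify, had intensities of 118.4, 104.6 and 76.6 in MMSET II, 79.8, 52.7 and 48.1 in F1177A, 40.7, 36.2 and 34.1 in Y1118A, and 5.0, 10.3 and 9.1 in DSRed cells. It was at least 2.19-fold higher in MMSET II, at least 2.31-fold in F1177A and at least 1.08-fold in Y1118A cells than in DSRed cells (limma, adjusted p = 1.58e-07, 1.52e-07 and 0.00185). As with PLOD2, the hairpin cells had it with and without doxycycline, with intensities of 116.8, 79.6 and 79.7 in +DOX cells and 39.0, 81.2 and 39.1 in no DOX cells, and the difference of 0.12 was not called (limma, adjusted p = 0.615). BMP1, the procollagen C-proteinase, was detected on all arrays of MMSET II cells alone, with intensities of 43.8, 31.4 and 26.8. The DSRed arrays gave 2.3, 6.3 and 11.2. BMP1 passed the detection filter through the MMSET II arrays, so its call as higher there carries no weight as a test. PCOLCE, which enhances that proteinase, was detected in all repletion groups and in neither hairpin group.

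**Figure D3:**
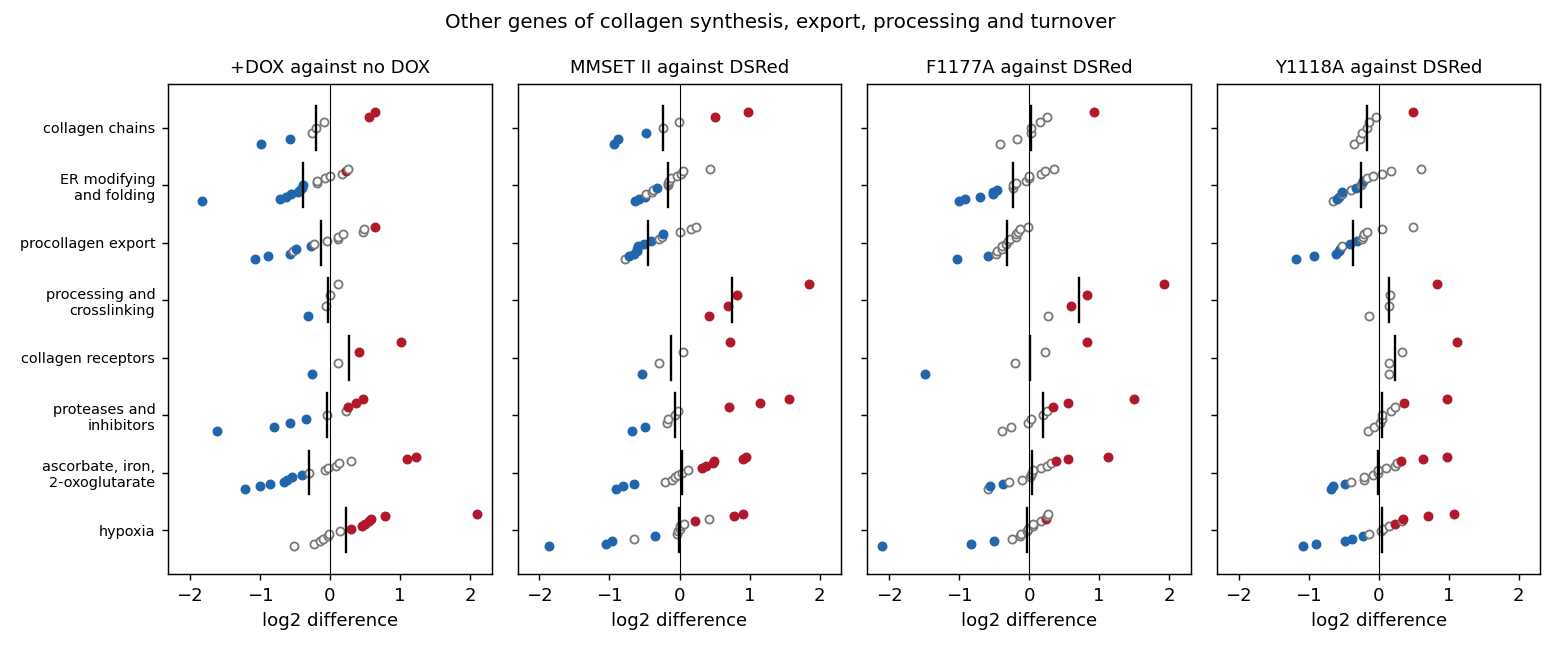
Log2 difference of the measured genes of each pathway list in +DOX against no DOX and in MMSET II, F1177A and Y1118A against DSRed; each point is a gene, blue where called lower, red where called higher and open where not called, and a line marks the list's median. The processing and crosslinking genes lie at a median of 0.76 in MMSET II, 0.71 in F1177A and 0.15 in Y1118A cells, and the endoplasmic reticulum genes at -0.38 with doxycycline.

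The directions of receptor, protease and cofactor genes differed between comparisons. Of 4 measured collagen receptors, 3 were lower and 0 higher in MMSET II than in Y1118A cells, and the same counts held for F1177A against Y1118A. Of all features 9.33% and 18.9% were called lower there. Median scaling gave 0 and 3 lower. ITGB1, the shared subunit of the collagen-binding integrins, was higher than in DSRed by 0.72, 0.83 and 1.12 in MMSET II, F1177A and Y1118A cells (limma, adjusted p = 9.09e-06, 2.7e-06 and 1.31e-07). Its other probe differed by 0.21, 0.55 and 0.42 (SE 0.17), and median scaling ended the F1177A call at the tested probe (0.33, adjusted p = 0.342). DDR2, a collagen receptor kinase, was at least 1.49-fold lower in F1177A cells. Among 9 measured proteases and inhibitors, PRCP, which cleaves after proline, fell by 1.61 with doxycycline and rose by 1.15, 1.505 and 0.98 in the 3 repletion groups (limma, adjusted p at most 1.19e-05). MMP9, a gelatinase that cuts denatured collagen, was at least 1.45-fold higher in MMSET II cells. Of 15 measured genes that supply ascorbate, iron or 2-oxoglutarate, 7 were lower and 2 higher with doxycycline (1 and 4 with median scaling). Their median difference was -0.30, against 0.01 over all features. The shares of all features were 20.1% lower and 21.2% higher. IDH2, a mitochondrial source of 2-oxoglutarate, fell by 1.21, and TFRC, the iron-importing transferrin receptor, rose by 1.23.

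Genes of the hypoxia pathway, to which PLOD2 and P4HA1 are textbook additions, were called higher with doxycycline in 7 of 14 cases and lower in none (10 and 0 with median scaling). Of all features 21.2% were called higher and 20.1% lower, and with median scaling 95.9% of all calls were higher. ADM, adrenomedullin, rose by 2.10 with doxycycline and by 1.07 in Y1118A cells, and fell by 1.86 in MMSET II cells (limma, adjusted p = 3.45e-09, 2.43e-05 and 7.41e-09). In F1177A cells ADM was at least 3.58-fold lower than in DSRed cells. PLOD2 did not share the order of ADM, being high in both hairpin groups and in MMSET II and F1177A cells. ADM is 1 of the 14 genes, and the part of the hypoxia pathway in the PLOD2 levels was not tested. In the MMSET II, F1177A and Y1118A groups 3, 1 and 4 of the 14 were higher than in DSRed cells and 4, 3 and 5 lower. Of all features 17%, 11.7% and 15.3% were called higher there and 15.8%, 8.79% and 12.4% lower. Median scaling gave 1, 0 and 1 higher and 2, 4 and 1 lower.

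Across the 18 arrays, the genes whose log2 levels were most like each of the 3 selected members were looked up, as a description of arrays that share groups and normalisation. COL18A1 was closest to ZIK1, a zinc finger gene (Pearson r = 0.997), FAM53A (0.993) and the protocadherin PCDH1 (0.989). FAM53A averaged 8.49 ± 0.23 in +DOX cells and 6.02 ± 0.39 in no DOX cells (SD, n = 3 each), and was detected on no repletion array. COL22A1 was closest to NECAB1, a neuronal calcium-binding protein (0.925), AFAP1L2 (0.921) and NMNAT3, a mitochondrial enzyme of NAD synthesis (0.913). AFAP1L2 was detected on all arrays of MMSET II (5.90) and F1177A cells (6.52) and on no other, as COL22A1 was. PLOD2 was closest to ATP2B4, a plasma membrane calcium pump (0.971), COBLL1 (0.967) and FAM149A (0.960). ATP2B4 and COBLL1 were detected on all arrays of every group except DSRed, where they were detected on none.

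**Figure D4:**
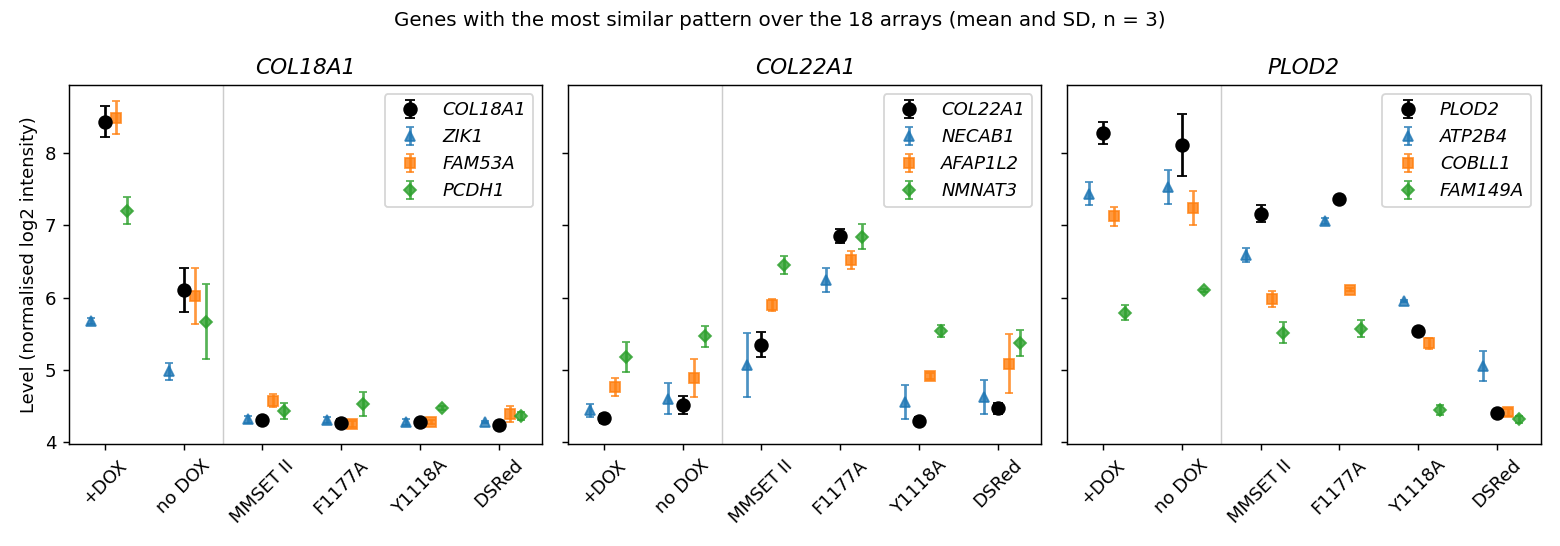
Group means and SD (n = 3) of the log2 level of COL18A1, COL22A1 and PLOD2, 1 panel each, beside the 3 genes with the highest Pearson correlation over the 18 arrays. The COL18A1 panel falls to background in all 4 repletion groups, the COL22A1 panel peaks in F1177A (6.85), and the PLOD2 panel has its lowest point in DSRed (4.41).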

How the data were processed

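Total RNA of 18 KMS11 samples was biotin-labelled, per the labels' protocols, and read on Illumina arrays. The deposited table holds a linear intensity and a detection p-value for every probe on every array, and is non-normalized per the file headers. Of these deposited intensities 31.1% are below 0, which shows that a background was subtracted. How the authors did so is not stated in the sources. The submitters' processing notes list GenomeStudio 1.5.4 and give it no role. The deposited series matrix holds quantile-normalised intensity values (from the values themselves) and entered 1 alternative. The analysis read 54 per-sample columns and left none unused.

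Intensities were normalised with neqc (limma 3.58.1, R 4.3.3; normexp with control parameters inferred from the detection p-values, offset 16, quantile) to log2 values computed from the deposited intensities. Probes with detection p under 0.01 on at least 3 arrays were kept (13336), and the brightest per symbol gave 10954 features. Symbols came from the platform annotation: 27578 probes had 1 symbol, 13 several and 21212 none. limma fitted 1 coefficient per group (12 residual degrees of freedom, trended eBayes), two-sided, with Benjamini-Hochberg adjustment in each comparison (7 in all). A group was near background where the probe was detected on none of its arrays or its mean was under the mean of the arrays' lowest detected signal, which then set the bound of the fold. The number of arrays limits the precision.

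The members and the gene lists were chosen with earlier results of these data known. Named genes were the members, NSD2, up to 3 called genes each way per list in comparisons with DSRed or no DOX, and the 3 closest patterns. A gene of a count of 5 or fewer could also be named, and P4HB was followed for its role as the shared subunit, chosen after its values were seen. Whether replicate numbers pair arrays was looked at by the correlation of same-numbered deviations from the group means, with no threshold set. All 3 were positive for F1177A and MMSET II (0.275, 0.168 and 0.219), where the block changed no member's call. They were also positive, but smaller, for Y1118A and DSRed (0.106, 0.037 and 0.125). Alternatives covered the scaling, offset, detection filter, probes, replicate block, brightness, array weights, groups fitted and each array left out.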

Additional observations from a re-analysis of the deposited data

How the results depend on the processing

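Of 336 recomputed differences of the 3 members with no test, 16 changed sign or went to 0. PLOD2 in F1177A against MMSET II turned to -0.48 with median scaling, and the other differences that changed were at most 0.17 in size as reported, such as COL18A1 where it was undetected. Median scaling also turned the F1177A against Y1118A differences of PLOD3 (-0.67) and SERPINH1 (-0.36) and the F1177A against MMSET II differences of PLOD3 (-0.35), P4HA1 (-0.33) and SERPINH1 (-0.060). Under that scaling the median of all features moved to -0.62 in both comparisons. Among the recomputed differences of the tested genes (NSD2 included), 642 stayed on the same side of the threshold with no called sign turned, 36 lost the call, 24 gained it and 5 reversed. Signs of uncalled differences did turn, with median scaling in PLOD3 for +DOX (0.53), MMSET II (0.047) and F1177A (-0.30), in SERPINH1 for F1177A against DSRed (-0.43) and in PLOD1 for F1177A against MMSET II (-0.47).

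Counts of called features were 4526 for +DOX, 3594 for MMSET II, 2250 for F1177A and 3038 for Y1118A against their controls, and 2025, 4020 and 4251 for MMSET II against Y1118A, F1177A against Y1118A and F1177A against MMSET II. With median scaling they were 1444 (MMSET II, 84.8% higher), 831 (Y1118A, 88.2% higher), 560 (MMSET II against Y1118A), 6835 (F1177A against Y1118A, 3.91% higher) and 6543 (F1177A against MMSET II, 2.63% higher), and for +DOX 95.9% of the calls were higher. Array weights, whose estimate stopped before it converged, gave 6821 (MMSET II), 4407 (F1177A), 7194 (Y1118A), 4563 (MMSET II against Y1118A) and 6370 (F1177A against Y1118A). Fitting the 2 groups alone gave 2826 (+DOX), 4070 (MMSET II against Y1118A) and 6114 (F1177A against Y1118A). Brightness as a covariate gave 1319 (F1177A against Y1118A) and 2537 (F1177A against MMSET II), and probes detected on all 18 arrays gave 1441 (F1177A against DSRed). Leaving out each array gave 3598 to 5095 (+DOX), 2648 to 4387 (MMSET II), 1506 to 2085 (F1177A), 1898 to 4269 (Y1118A), 1347 to 1526 (MMSET II against Y1118A), 2742 to 3438 (F1177A against Y1118A) and 2996 to 3788 (F1177A against MMSET II). The cause of these shifts was not tested.

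The replicate block gave 4400 calls for +DOX, 3434 for MMSET II, 2108 for F1177A, 2883 for Y1118A, 1869 for MMSET II against Y1118A, 3827 for F1177A against Y1118A and 4090 for F1177A against MMSET II. Outside the last pair the same-numbered arrays had correlations of -0.61 to 0.34. The block ended the SERPINH1 call in Y1118A against DSRed (adjusted p = 0.0594) and added P4HA2 in MMSET II against DSRed (0.0367), and no other member call changed. Signal near background limits COL22A1 and P4HA2, and 1 probe per gene limits all members.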
